A study of Sus scrofa with 50 samples.

Results

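The genes described here are 38 named genes of the cell cycle and of DNA replication, read in 5 tissues of Korean minipigs (spleen, lung, liver, kidney and heart). A member was measured by adding up the TPM (transcripts per 1000000, a length-normalised share of all transcripts in a library) of every assembled transcript whose best Swiss-Prot match carries the member's entry name. Of the 38 names, 36 had at least 1 transcript, and 55 of the 57085 transcripts in the table belong to them. CCNA2, which is cyclin A2, and ASPM, a spindle pole protein, matched no transcript and have no value. The whole table holds 14532 Swiss-Prot entries, and 35133 genes when transcripts without a match are counted on their own.

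Cells that divide copy their DNA once and then separate the copies, and both jobs need proteins that resting cells make in small amounts. In late mitosis and early G1 the MCM helicase is loaded on DNA with the help of CDT1, geminin blocks that loading afterwards, and E2F factors switch on the enzymes that supply and join nucleotides in S phase. Cyclin B with CDK1 then drives mitosis, Aurora and Polo kinases with kinesins build and divide the spindle, and the anaphase promoting complex with CDC20 and UBE2C ends it. In adult tissues these transcripts are commonly read as a sign of proliferating cells, such as dividing lymphocytes in spleen, while most heart muscle cells, hepatocytes and kidney tubule cells are at rest.

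Stranded mRNA libraries were made from total RNA of each tissue of 10 animals, which gave 50 libraries. The ET type is represented by 5 animals (S0235, S0242, S0276, S0309, S0326) and the L type by 5 others (S0349, S0355, S0377, S0384, S0385), and each gave all 5 tissues. The labels give no age, sex, genotype or treatment and do not say what sets the types apart. The kidney library of the ET-type animal S0235 has a lymphoid profile, so it is described apart and the kidney values below rest on the other 9 libraries.

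Each labelled tissue held its own markers: uromodulin, albumin, surfactant protein C, cardiac myosin and the spleen factor TLX1 were highest in kidney, liver, lung, heart and spleen, in that order. NKX25, another gene of the spleen list, did not set spleen apart from heart, with medians of 40.8 and 44.2 TPM. In the kidney library of S0235 the 5 kidney markers summed to 0.630 TPM, against 796 to 6321 TPM in the other kidneys, while its B cell markers summed to 646 TPM and its T and NK cell markers to 2807 TPM. Read depth is unknown, since TPM keeps no depth. RNA came from whole tissue, so fewer dividing cells and less of a transcript per cell cannot be told apart in any result below.

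The definition of a member limits what can be read from some of them. 22 members rest on 1 transcript, and 25 of the 55 transcripts were assembled from lymph, a tissue with no library here. Over the 55 transcripts the median identity to the matched protein was 92.8%, and 4 were below 70%. KI67, the Ki-67 antigen of proliferating cells, rests on 1 transcript that matches residues 2721 to 3253 of the human protein with 34.7% identity. PRC1, a bundler of spindle microtubules, has 5 transcripts, and 2 of them with 37.98% identity hold 50.3% and 18.01% of its TPM. KIF23, a kinesin of the cleavage furrow, rests on 2 transcripts that match only short stretches of the protein, with 83.7% and 77.4% identity.

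Across tissues the members were highest in lung and spleen, intermediate in kidney and lowest in liver and heart. The median member had a mean of 4.87 TPM in lung, 3.85 in spleen, 1.43 in kidney, 0.751 in liver and 0.534 in heart. Lung held the highest mean of 20 of the 36 members, spleen of 15 and kidney of 1, and the lowest mean was in heart for 23, in liver for 11 and in kidney for 2. How often each tissue held the highest or lowest mean was not counted over all genes. A mean of at least 1 TPM was reached by 33 members in lung, 32 in spleen, 22 in kidney, 14 in liver and 12 in heart. Of all 35133 genes, 29139 reached it in lung, 24007 in spleen, 26569 in kidney, 21445 in liver and 21014 in heart. For 26 members every heart library lay below every lung library, while the lung and spleen ranges overlapped for 33. Among genes that averaged at least 1 TPM the former held for 24 of 31 members and 35.2% of all genes, and the latter for 28 of 31 members and 78.7% of all genes. Some of these members reached that average only through lung and spleen, so the former was partly set by the filter. The exact order of the medians, lung, spleen, kidney, liver, heart, was shown by 8 members.

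**Figure D1:**
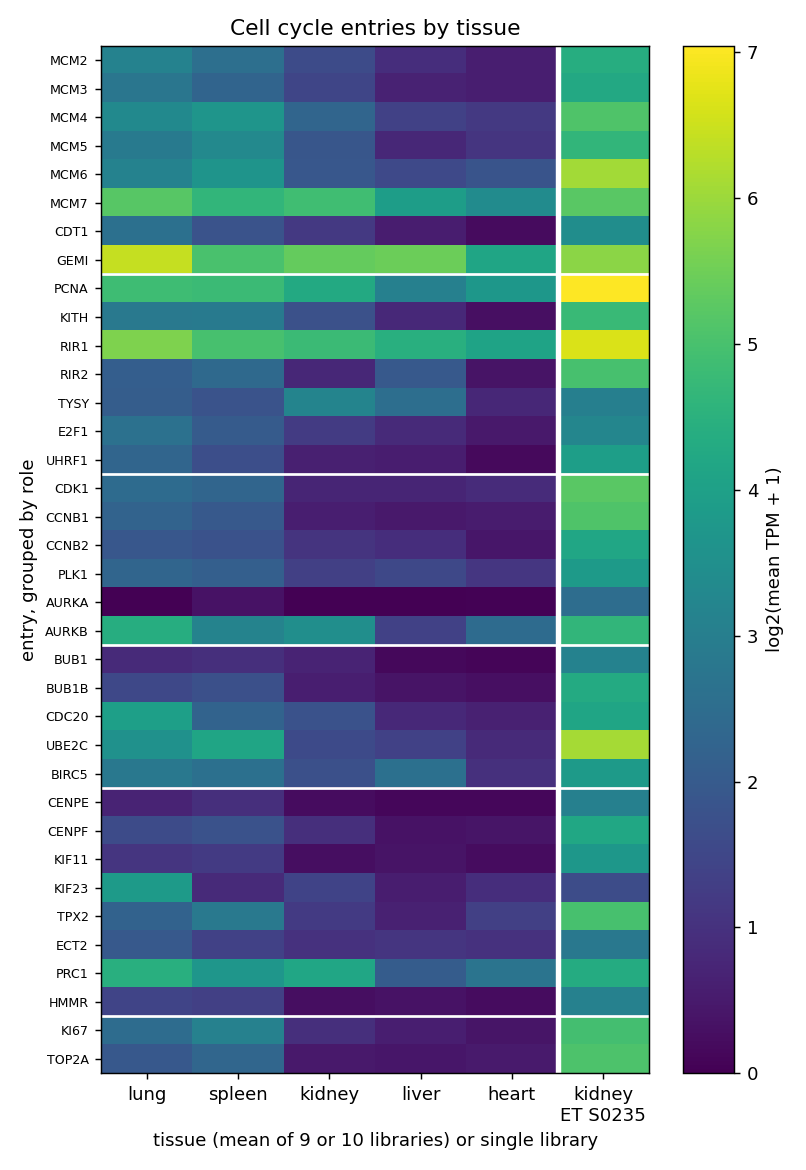
Mean level of the 36 measured members as log2(mean TPM + 1), with tissues in columns, members in rows grouped by role and white lines between roles. The last column is the single kidney library of the ET-type animal S0235, and lung and spleen are the brightest of the 5 tissue columns for most rows, with TYSY brightest in kidney.

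Tissue pairs were compared with limma on log2(TPM + 1) over 49 libraries, and a gene was called when its Benjamini-Hochberg adjusted p over all 29725 genes tested was below 0.05. The fit had terms for tissue and type but none for the animal, and it gave the p-values of members in tissue pairs below. Genes needed a mean of at least 1 TPM over these 49 libraries, which 31 of the 36 members reached. AURKA, BUB1, CENPE, KIF11 and HMMR did not and were not tested. Some members passed only through lung and spleen. TOP2A averaged 2.86 and 4.02 TPM there against 0.349 to 0.424 elsewhere, and BUB1B 1.90 and 2.27 against 0.218 to 0.507. For such members the direction of calls against heart, liver or kidney was partly set by this filter. The median of all genes was not at 0 in these contrasts, for a reason that was not tested. It stood at 0.99 for lung minus heart, and the members' counts have to be read against the share of all genes called in the same direction.

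Against heart, the tissue of contractile muscle cells, lung was called higher for 31 of the 31 tested members, where 79.6% of all genes were called, 71.2% higher and 8.34% lower. Spleen was called higher for 28 and lower for none, where 54.3% of all genes were called, 40.7% higher and 13.5% lower. The members' median log2 difference was 1.79 in lung minus heart and 1.37 in spleen minus heart, beside 0.99 and 0.31 for all genes. Without the filter on low values, 35 of 36 members were called between lung and heart and 32 between spleen and heart, beside 75.6% and 51.1% of all genes. After median-ratio scaling, which brings the medians of all genes near 0, lung minus heart had 26 members higher and none lower, against 34.4% and 25.2% of all genes. Spleen minus heart then had 27 higher and 1 lower, against 26.2% and 26.0% of all genes.

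Against liver, lung was called higher for 29 members and lower for none, where 79.9% of all genes were called, 69.0% higher and 10.9% lower. Spleen was called higher for 25 and lower for 1, where 59.2% of all genes were called, 40.8% higher and 18.4% lower. Median-ratio scaling left 23 higher and 3 lower for lung minus liver, beside 35.5% and 26.7% of all genes. For spleen minus liver it left 22 higher and 2 lower, beside 30.0% and 29.5%. Against kidney, lung was called higher for 29 and lower for 1, where 60.7% of all genes were called, 45.2% higher and 15.5% lower. Spleen minus kidney gave 22 higher and 3 lower, beside 20.4% and 36.2% of all genes (56.6% called in all), and 23 higher and 3 lower after median-ratio scaling, beside 24.2% and 33.5%. With median-ratio scaling lung minus kidney had 25 higher and 1 lower, beside 26.3% and 26.5% of all genes.

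The order of lung and spleen depended on the scaling. As deposited, spleen minus lung gave 3 members higher and 14 lower, beside 11.8% and 53.2% of all genes (65.0% called in all). After median-ratio scaling it gave 12 higher and 4 lower, beside 24.5% and 28.9% of all genes. The members' median difference moved from -0.26 to 0.23 between these scalings, and that of all genes from -0.54 to -0.07. The 3 members called higher in spleen as deposited were TPX2, which activates Aurora A on the spindle, UBE2C, and the helicase subunit MCM5.

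The other 3 pairs were closer. Kidney minus liver gave 16 members higher and 2 lower, beside 52.0% and 13.5% of all genes (65.6% called in all), and 11 higher and 5 lower after median-ratio scaling, beside 35.1% and 25.8%. Kidney minus heart gave 19 higher and none lower, beside 53.2% and 12.3% of all genes (65.5% called in all), and 14 higher and 3 lower after scaling, beside 35.9% and 27.2%. Liver minus heart gave 8 higher, led by RIR2, TYSY and GEMI, and 5 lower, which were AURKB, PRC1, PCNA, TPX2 and KIF23, beside 27.9% and 24.5% of all genes (52.4% called in all). After scaling it gave 10 higher and 6 lower, beside 28.7% and 29.1%. In a test on simulated data the pooled fit made more false calls than its threshold allows, 10.8% to 28.4% of its calls in the pairs with spleen. The same pairs of tissues were therefore also fitted as differences within each animal, where 3.03% to 7.98% of calls were false in that test. In that form spleen minus lung gave 2 members higher and 13 lower, beside 13.4% and 58.7% of all genes. Spleen minus kidney gave 22 and 3 in that form (21.4% and 38.3% of all genes), spleen minus liver 25 and 0 (44.9% and 19.8%) and spleen minus heart 29 and 0 (47.4% and 16.4%).

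Among the licensing genes, MCM2 to MCM6 are subunits of the helicase that opens DNA for copying. MCM2 (chr13:72630378-72651270 in the RefSeq annotation of Sscrofa11.1) averaged 7.66 ± 2.73 TPM in lung (SD, n = 10), 4.92 ± 2.77 in spleen, 2.04 ± 0.565 in kidney (n = 9), 0.895 ± 0.846 in liver and 0.517 ± 0.311 in heart. MCM5 averaged 8.999 ± 3.49 TPM in spleen, 6.42 ± 2.01 in lung, 2.71 ± 0.853 in kidney, 1.11 ± 0.517 in heart and 0.713 ± 0.35 in liver. The largest of the 5 subunits MCM2 to MCM6 exceeded the smallest in the same library by a median of 1.82 times in lung, 2.64 in kidney, 3.96 in spleen, 5.01 in liver and 6.43 in heart. MCM6 was the highest of these 5 in heart, at 2.53 ± 0.712 TPM. MCM2 was a median of 21.0% of MCM6 in heart, 35.3% in liver, 39.1% in spleen, 77.9% in kidney and 98.7% in lung. MCM7 was far higher than the rest in each tissue, from 9.46 ± 2.13 TPM in heart to 35.8 ± 5.99 in lung, and 91.0% of it came from a single transcript of 6558 nt. MCM3 followed MCM2, with 5.78 ± 1.82 TPM in lung and 3.78 ± 2.36 in spleen, while MCM4 was higher in spleen, at 11.7 ± 4.05 TPM, than in lung, at 9.16 ± 3.55, without passing (limma, 0.32, adjusted p = 0.13).

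CDT1, the loading factor, averaged 5.11 ± 1.61 TPM in lung, 2.50 ± 1.30 in spleen, 1.23 ± 0.69 in kidney, 0.467 ± 0.522 in liver and 0.159 ± 0.114 in heart, a span of 32.2 times between lung and heart. Geminin (GEMI), its inhibitor, followed another order: 84.6 ± 29.2 TPM in lung, 42.9 ± 19.3 in liver, 40.5 ± 9.27 in kidney, 31.6 ± 8.47 in spleen and 16.7 ± 5.49 in heart. Lung minus liver was 1.01 as deposited (limma, adjusted p = 1.1e-05) and turned to -0.13 after median-ratio scaling (adjusted p = 0.50). Spleen was lower than lung for GEMI by 1.37 on the log2 scale (limma, adjusted p = 4.4e-08). CDT1 was thus a median of 8.08% of GEMI in spleen, 6.51% in lung, 2.76% in kidney, 0.969% in heart and 0.912% in liver. GEMI is the member with the highest mean in lung, kidney, liver, spleen and heart, and 96.6% of it came from 1 transcript with 80.8% identity to human geminin.

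Nucleotide supply and DNA synthesis genes split into those with a base level in every tissue and those without. RIR1, the large subunit of ribonucleotide reductase, ran from 15.9 ± 3.4 TPM in heart to 50.2 ± 11.07 in lung, with 20.9 ± 5.67 in liver, 26.9 ± 4.72 in kidney and 30.7 ± 9.65 in spleen. RIR2, the small subunit that supplies deoxynucleotides in S phase, averaged 4.27 ± 3.35 TPM in spleen, 3.34 ± 1.01 in lung, 2.90 ± 1.45 in liver, 0.715 ± 0.483 in kidney and 0.300 ± 0.266 in heart. RIR2 was a median of 1.08% of RIR1 in heart, 1.99% in kidney, 6.72% in lung, 10.4% in spleen and 15.1% in liver. Liver therefore stood with lung and spleen for RIR2: kidney was lower than liver by 1.14 on the log2 scale (limma, adjusted p = 2e-05), and lung minus liver, at 0.21, did not pass (adjusted p = 0.38).

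The clamp, the salvage kinase and the transcription factor were lowest in heart or liver. PCNA, the sliding clamp of the DNA polymerases (chr17:14137746-14142584), averaged 27.9 ± 5.3 TPM in lung, 27.1 ± 9.32 in spleen, 18.3 ± 10.49 in kidney, 12.2 ± 3.14 in heart and 7.38 ± 2.56 in liver, and lung minus heart, 1.15 as deposited, was -0.04 after median-ratio scaling. Thymidine kinase 1 (KITH) averaged 6.33 ± 2.54 TPM in spleen, 6.18 ± 2.39 in lung, 2.36 ± 1.44 in kidney, 0.754 ± 0.558 in liver and 0.225 ± 0.287 in heart. E2F1, the transcription factor, averaged 5.21 ± 1.57 TPM in lung, 3.04 ± 0.999 in spleen, 1.36 ± 1.03 in kidney, 0.802 ± 1.01 in liver and 0.402 ± 0.321 in heart. UHRF1, which guides copying of DNA methylation, was 29.4 times higher in lung than in heart by mean TPM.

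Thymidylate synthase (TYSY), which makes the thymine nucleotide, had an order of its own. Kidney was highest at 8.05 ± 3.81 TPM, then liver at 4.86 ± 3.17, lung at 3.24 ± 1.15, spleen at 2.48 ± 0.996 and heart at 0.737 ± 0.441. The 9 kidneys ran from 4.03 to 16.6 TPM and the 10 spleens from 1.11 to 3.90, so these 2 tissues did not overlap. How often kidney and spleen did not overlap was not counted over all genes. In limma spleen was lower than kidney by 1.34 on the log2 scale (adjusted p = 9.6e-06) and lung lower by 1.04 (adjusted p = 0.00033).

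Of the mitotic kinases and cyclins, CDK1 averaged 4.56 ± 1.63 TPM in lung, 3.91 ± 2.34 in spleen, 0.831 ± 0.693 in heart, 0.646 ± 0.677 in liver and 0.643 ± 0.336 in kidney. Its partner CCNB1, cyclin B1, averaged 3.74 ± 0.954 TPM in lung, 2.88 ± 2.18 in spleen, 0.510 ± 0.172 in kidney, 0.452 ± 0.369 in heart and 0.398 ± 0.462 in liver. The 3 tissues at the low end could not be ordered for either gene, since no contrast among kidney, liver and heart passed in limma. CCNB1 was called lower in spleen than in lung at -0.44 (adjusted p = 0.046), and that difference was 0.01 after median-ratio scaling. AURKB, the kinase of the chromosomal passenger complex, kept a higher base level, 20.02 ± 9.89 TPM in lung, 10.2 ± 3.43 in kidney, 7.81 ± 3.37 in spleen, 4.51 ± 1.29 in heart and 1.55 ± 1.32 in liver. AURKA, its spindle pole relative, was listed at 0 in 44 of the 50 libraries, among them every lung and liver library. PLK1, the Polo kinase, averaged 3.87 ± 1.77 TPM in lung, 3.40 ± 2.09 in spleen and 1.17 to 1.90 in the other tissues. CCNB2, cyclin B2, averaged 2.79 ± 0.652 TPM in lung and 2.39 ± 1.05 in spleen, and 0.346 ± 0.319 in heart.

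At anaphase, UBE2C, the ubiquitin-conjugating enzyme of the anaphase promoting complex, was the only member for which every lung and spleen library lay above every heart, liver and kidney library, which held for 0.602% of all genes that averaged at least 1 TPM. It averaged 16.5 ± 5.52 TPM in spleen, 10.8 ± 3.36 in lung, 2.01 ± 1.78 in kidney, 1.57 ± 0.738 in liver and 0.777 ± 0.911 in heart. CDC20, the activator that works with UBE2C, was instead far higher in lung, at 14.7 ± 4.82 TPM, than in spleen, at 3.75 ± 1.64. Its lung and spleen ranges did not overlap, with lung from 8.02 to 25.2 TPM and spleen from 2.28 to 7.30. Lung and spleen ranges overlapped for 78.7% of all genes that averaged at least 1 TPM. For CDC20, spleen was lower than lung by 1.73 on the log2 scale (limma, adjusted p = 8.8e-10). BIRC5, survivin, averaged 5.07 ± 4.61 TPM in liver, 6.13 ± 1.14 in lung and 5.10 ± 1.81 in spleen. The liver of S0326 alone held 17.4 TPM, against 1.11 to 7.14 in the other 9 livers. Lung was called higher than liver by 0.47 on the log2 scale (limma, adjusted p = 0.047), and spleen minus liver, at 0.20, did not pass (adjusted p = 0.45). The checkpoint kinases were low: BUB1B averaged 1.90 ± 0.609 TPM in lung and BUB1 0.774 ± 0.24, and their spleen means were 2.27 and 0.921 TPM.

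KIF23 had the steepest fall from lung to spleen. It averaged 13.3 ± 5.05 TPM in lung, 1.69 ± 0.46 in kidney, 0.895 ± 0.213 in heart, 0.802 ± 0.478 in spleen and 0.487 ± 0.337 in liver, and spleen was lower than lung by 2.95 on the log2 scale (limma, adjusted p = 2.9e-22). Both its transcripts were assembled from lung of the L type and both showed the pattern, with 7.55 and 5.73 TPM in lung against 0.481 and 0.321 in spleen. Which gene these 2 transcripts come from was not tested. PRC1 averaged 20.9 ± 6.36 TPM in lung and 17.1 ± 5.28 in kidney, a difference that did not pass in limma (0.30, adjusted p = 0.19). Its only transcript that matches the whole protein averaged 1.56 TPM in lung, 1.78 in kidney and 1.55 in spleen.

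Of the other spindle genes, TPX2 averaged 6.21 ± 3.45 TPM in spleen, 3.63 ± 0.82 in lung, 1.51 ± 1.01 in heart, 1.27 ± 0.594 in kidney and 0.570 ± 0.369 in liver. ECT2 averaged 2.89 ± 0.786 TPM in lung, 1.55 ± 0.846 in spleen and 0.990 to 1.13 in the remaining tissues, and spleen was lower than lung by 0.66 on the log2 scale (limma, adjusted p = 0.00082). The kinetochore proteins CENPF and CENPE were highest in spleen, at 2.41 ± 1.24 and 0.923 ± 0.67 TPM. The spindle motor KIF11 was also highest there, with a mean of 1.30 TPM, and HMMR, a microtubule-binding protein, in lung, at 1.72 ± 0.666 TPM.

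The chromosome proteins KI67 and TOP2A were highest in spleen. KI67 averaged 7.57 ± 5.69 TPM there, 4.64 ± 2.16 in lung, 0.917 ± 0.935 in kidney, 0.501 ± 0.548 in liver and 0.313 ± 0.288 in heart. TOP2A, topoisomerase II alpha, averaged 4.02 ± 3.61 TPM in spleen, 2.86 ± 0.992 in lung, 0.424 ± 0.444 in heart, 0.397 ± 0.288 in kidney and 0.349 ± 0.325 in liver. Spleen minus lung passed for neither (limma, 0.47 for KI67 with adjusted p = 0.089 and 0.16 for TOP2A with adjusted p = 0.54), and the spread among spleens was wide because 2 animals stood high.

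**Figure D2:**
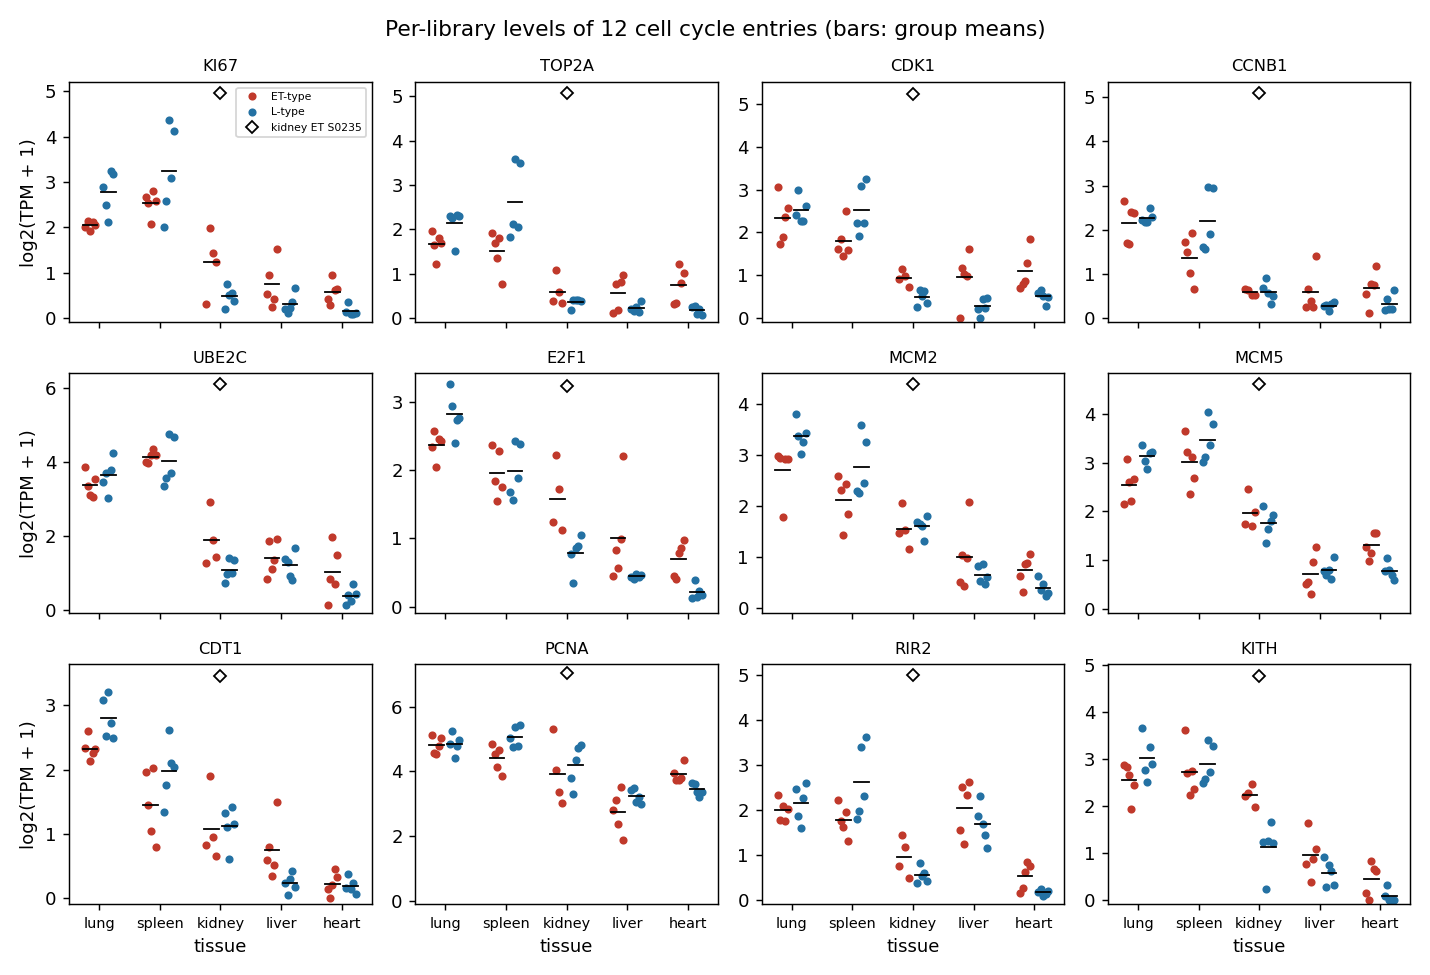
Level of 12 members in each library as log2(TPM + 1), 1 panel per member, with tissue on the x axis, red points for ET-type and blue points for L-type animals, and black bars at the group means. The open diamond is the kidney library of S0235, which lies above the other kidney points in all 12 panels.

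Within each tissue a few libraries held the extreme values of many members. How often the same libraries held the extreme value was not counted over all genes. In spleen, the L-type animals S0377 and S0385 held the highest value of 18 and 14 of the 36 members, and the ET-type animals S0276 and S0326 the lowest of 14 each. The median member was 8.01 TPM in spleen S0377 and 7.54 in S0385, against 1.84 to 3.88 in the other 8 spleens. The same 2 spleens had the lowest summed erythroid markers, 5496 and 12449 TPM against 54519 to 337485, the highest B cell marker sums, 514 and 288 TPM against 47.0 to 221, and macrophage marker sums of 2325 and 2470 TPM against 582 to 1438. S0276 and S0326 had the highest erythroid sums, 337485 and 293401 TPM. How far these cell markers account for the members' values was not tested.

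Liver and heart each had high libraries of the ET type. In liver, S0326 held the highest value of 25 members and a median member of 1.86 TPM, against 0.381 to 1.09 in the other 9. That liver also had the lowest sum of liver markers, 68996 TPM against 119002 to 200029, and the highest erythroid sum, 822 TPM against 15.3 to 505. In heart, S0326, S0276 and S0309 held the highest value of 14, 10 and 8 members, with median members of 1.13, 0.885 and 0.831 TPM, against 0.207 to 0.468 in the other 7. Those 3 hearts had the lowest sums of the 5 heart muscle markers, 17465, 40221 and 21636 TPM against 53098 to 77656. Their endothelial sums of 410, 293 and 437 TPM were the highest, against 126 to 210. The part of these marker shifts in the members' values was not tested.

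Kidney and lung each had such libraries as well. Kidney S0276 of the ET type held the highest value of 21 members, with a median member of 2.86 TPM against 0.920 to 1.67 in the other 8, and its T and NK cell marker sum was 111 TPM against 14.3 to 33.6. In lung, S0276 held the lowest value of 16 members and the L-type S0377 of 9. Lung markers summed to 5118 TPM in S0276 and 4766 in S0377, and of the other 8 lungs only S0309 was lower, at 3388 TPM, while the highest had 25500. The part of these markers in the members' values was not tested.

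**Figure D3:**
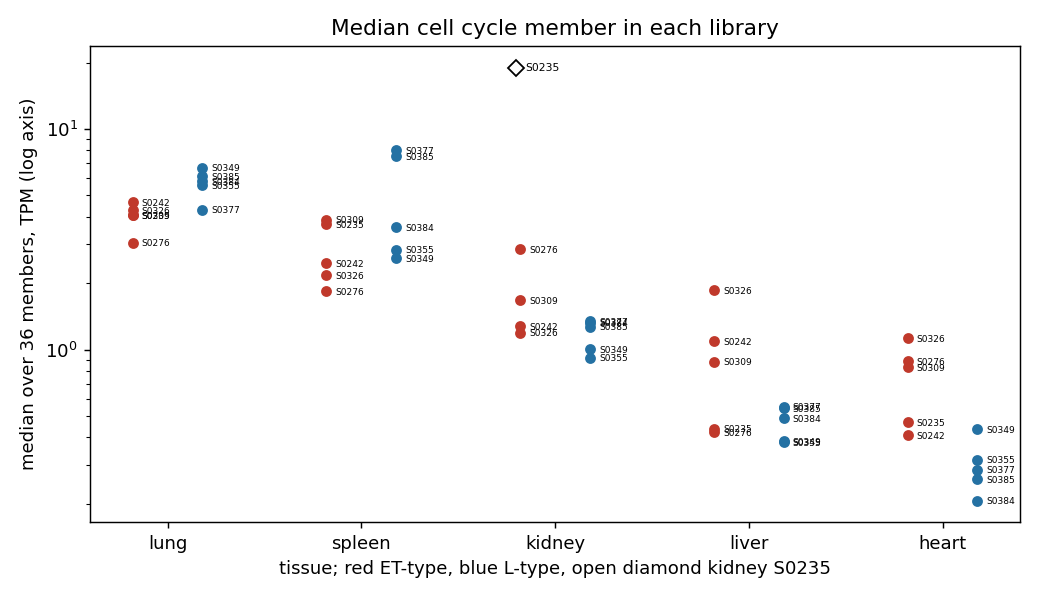
Median over the 36 members in each library, in TPM on a log axis, by tissue, with red ET-type points, blue L-type points and animal names. Spleens of S0377 and S0385 stand above the other spleens, and the diamond of kidney S0235 at 19.0 TPM stands above all 49 other libraries.

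The kidney library labelled S0235 had the highest levels of the set for most of these genes. Its median member was 19.0 TPM, and 27 of 36 members were higher there than in each of the other 49 libraries. Among members with a mean of at least 1 TPM this held for 22 of 31, where it held for 15.1% of all entries at that level. Compared with the mean of the other 9 kidneys, the median member was 10.7 times higher. TOP2A reached 32.6 TPM against at most 11.09 elsewhere, CDK1 36.9 against 8.43, CCNB1 33.1 against 6.86, UBE2C 67.1 against 25.9, MCM6 66.1 against 21.1, and PCNA 131 against 42.6. RIR2 was 31.2% of RIR1 there, above the 26.6% of the highest liver and the 24.1% of the highest spleen. The members for which at least 1 of the other 9 kidneys was higher were MCM7, TYSY, KIF23, PRC1 and GEMI.

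The types were compared within each tissue by limma, with p-values adjusted over all genes. The question is whether ET-type and L-type animals differ in these genes. With 5 animals of a type, the exact permutation test of a single value has a smallest 2-sided p of 0.00794. Labels show separate animals, so the spread is between animals. In a test on simulated data 4.58% (liver) to 10.96% (heart) of the calls of these fits were false. They recovered 10% (kidney) to 34% (heart) of the genes given a change of 1 on the log2 scale.

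In spleen, 4 of 32 tested members were called, all lower in the ET type, where 22.2% of all genes were called, 21.5% lower and 0.696% higher. That share for the members was below the background, while a joint fit over the tissues that took the animal as a replicate block called 11 of 31 lower, above its background of 20.3% of all genes called lower (20.7% in all). The members' median difference was -0.57 on the log2 scale and that of all genes -0.47. By sum, erythroid markers were 110625 to 337485 TPM in ET-type spleens and 5496 to 150434 in L-type spleens, and T and NK cell markers 221 to 443 and 415 to 837. All 4 calls were lost when the libraries were scaled by median ratio, and when the spleens of S0377 and S0385 were left out, where 0.00881% of all genes were called.

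RIR1 (chr9:6026151-6065211) was 24.6, 22.6, 19.3, 29.2 and 21.0 TPM in the ET-type spleens of S0235, S0242, S0276, S0309 and S0326, and 30.8, 29.9, 44.4, 38.3 and 46.9 TPM in the L-type spleens of S0349, S0355, S0377, S0384 and S0385. Every L-type spleen lay above every ET-type spleen. The difference was -0.67 ± 0.18 (log2, standard error; limma, adjusted p = 0.0304), with means of 23.4 ± 3.82 and 38.1 ± 7.68 TPM (SD, n = 5 each). It was -0.13 after median-ratio scaling (adjusted p = 0.42) and -0.49 without the spleens of S0377 and S0385 (adjusted p = 0.23).

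PRC1 (chr7:55869749-55900640) was 8.61, 10.97, 5.75, 10.2 and 6.22 TPM in the ET-type spleens and 13.5, 12.5, 17.02, 14.2 and 21.97 TPM in the L-type spleens, in the same order of animals. Again the types did not overlap. The difference was -0.86 ± 0.22 (limma, adjusted p = 0.0289), but with transcripts of at least 70% identity alone it was -0.37 (adjusted p = 0.25). ECT2, an exchange factor that starts cytokinesis (chr13:111248215-111310746), was 0.928, 1.42, 0.824, 1.24 and 0.125 TPM in ET-type and 2.03, 1.53, 2.45, 1.98 and 3.02 TPM in L-type spleens, with no overlap and a difference of -0.78 ± 0.24 (limma, adjusted p = 0.0419). PCNA was 27.6, 22.02, 16.4, 24.3 and 13.5 TPM against 31.8, 26.0, 40.7, 26.3 and 42.6 TPM, where the ET-type S0235 lay above 2 L-type animals, with a difference of -0.68 ± 0.22 (limma, adjusted p = 0.0479).

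The 3 members whose spleen types did not overlap were RIR1, PRC1 and ECT2, and 15.5% of all genes had the ET type below without overlap. Among the rest, TOP2A had the largest difference, -1.11 ± 0.38, and missed the threshold (limma, adjusted p = 0.0538). It was 2.81, 2.22, 1.55, 2.51 and 0.706 TPM in ET-type and 2.56, 3.33, 11.09, 3.15 and 10.3 TPM in L-type spleens, so that 2 animals carried the L-type mean. KI67 at -0.71 ± 0.40 did not pass (adjusted p = 0.18), and apart from S0377 and S0385 its L-type values, 2.996, 4.99 and 7.53 TPM, lay below, within and above the ET-type range of 3.18 to 5.93. UBE2C had means of 16.5 ± 1.97 and 16.5 ± 8.05 TPM and was the 1 tested member with a difference above 0 (0.12 ± 0.28, adjusted p = 0.75).

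**Figure D4:**
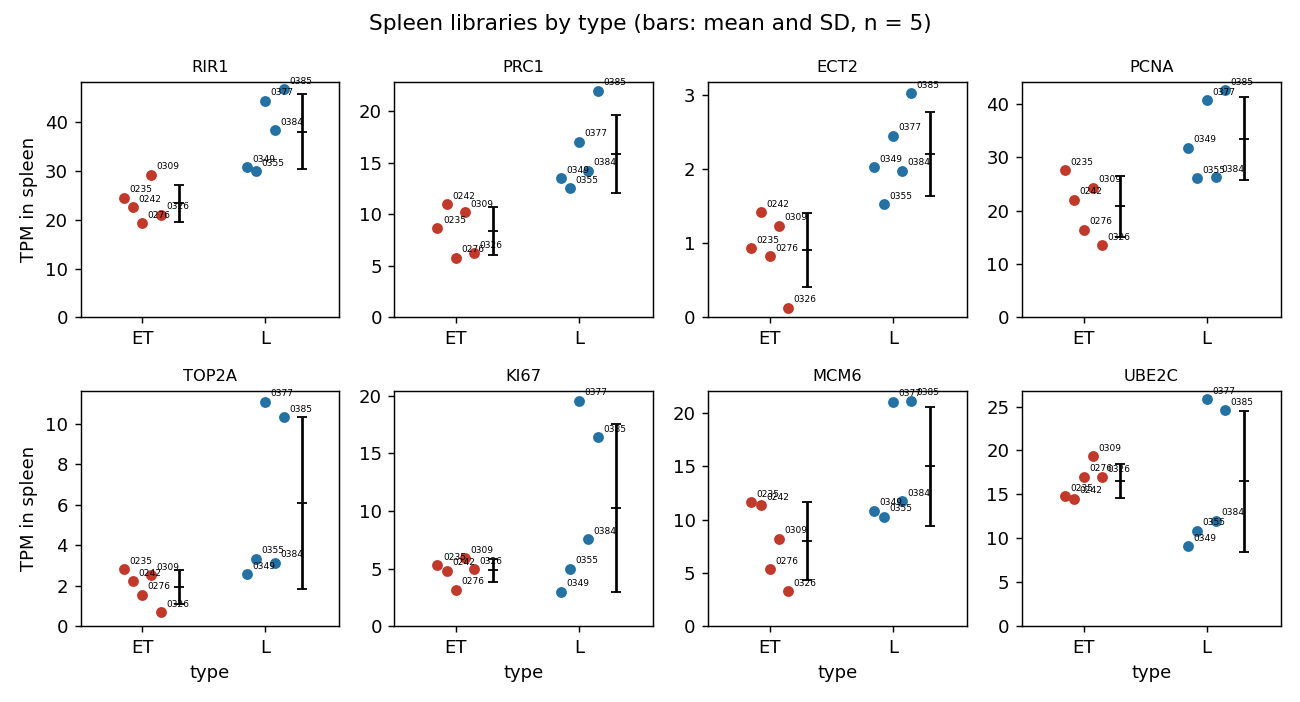
TPM of 8 members in each spleen library by type, with animal numbers beside the points and bars for the mean and SD of 5 animals. The upper row holds the 4 members called by limma, and in the lower row L-type S0377 and S0385 lie above the other 8 spleens for TOP2A, KI67, MCM6 and UBE2C.

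In heart none of the 12 tested members was called (limma), with 0.0238% of all genes called, 0.0143% higher and 0.00952% lower. The members' median difference was 0.46, beside 0.09 for all genes. TPX2 was 1.15, 1.32, 2.82, 2.24 and 3.54 TPM in the ET-type hearts and 0.611, 0.867, 0.800, 0.774 and 0.929 TPM in the L-type hearts. These groups did not overlap, and the difference was 0.78 ± 0.23 (adjusted p = 0.10 in limma). Without S0242 TPX2 was called at 0.89 (limma, adjusted p = 0.039), where 10.2% of all genes were called. MCM6 and PCNA also did not overlap, with 3.11% of all genes in that direction. MCM6 had a difference of 0.50 ± 0.16 (adjusted p = 0.12) and PCNA of 0.47 ± 0.17 (adjusted p = 0.14), and MCM5, with 0.52 ± 0.19, had an adjusted p of 0.14. MCM7 was level, at -0.004 ± 0.19 (adjusted p = 0.99). Heart muscle markers summed to 17465 to 60041 TPM in ET-type and 67079 to 77656 TPM in L-type hearts, and those sums too did not overlap.

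KI67 and TOP2A were too low in heart to enter the test. Per library KI67 was 0.325, 0.211, 0.935, 0.539 and 0.562 TPM in ET-type hearts and 0.0929, 0.278, 0.0577, 0.0570 and 0.0735 TPM in L-type hearts, and only S0355 among the L-type animals reached into the ET-type range. TOP2A was 0.251, 0.266, 1.32, 0.739 and 1.02 TPM in ET-type and 0.179, 0.202, 0.068, 0.144 and 0.0495 TPM in L-type hearts, with no overlap. These values lie near the bottom of the scale, and overlap of the types was not counted over genes with a heart mean below 1 TPM.

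In kidney, without the S0235 library, none of 22 tested members was called (limma), beside 0.00376% of all genes. KITH was 3.64, 3.81, 4.48 and 2.94 TPM in the ET-type kidneys of S0242, S0276, S0309 and S0326, and 1.34, 0.179, 1.36, 2.15 and 1.32 TPM in the L-type kidneys. The difference was 1.11 ± 0.30 (limma, adjusted p = 0.57) and the types did not overlap. E2F1 likewise did not overlap, at 1.36, 3.65, 2.32 and 1.18 against 0.700, 0.266, 0.807, 0.847 and 1.07 TPM, with a difference of 0.80 ± 0.29 (adjusted p = 0.57). Of all genes, 0.151% had the ET type above without overlap. KIF23 was the 1 member with the ET type below without overlap, 1.23 to 1.38 against 1.495 to 2.43 TPM, where 2.77% of all genes did the same. UBE2C, at 0.79 ± 0.35, had an unadjusted p of 0.043 (adjusted p = 0.57). CDC20 at 0.28, and GEMI, PRC1 and MCM7 at -0.38, -0.38 and -0.27, had adjusted p of 0.63 to 0.73.

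In lung none of 33 tested members was called (limma), with 0.213% of all genes called, 0.0275% higher and 0.185% lower. The members' median difference was -0.29, beside -0.15 for all genes. KI67 was 3.02, 3.41, 2.76, 3.32 and 3.13 TPM in ET-type lungs and 6.34, 4.63, 3.33, 8.45 and 7.98 TPM in L-type lungs, a difference of -0.73 ± 0.24 (adjusted p = 0.18). S0377 was the L-type lung that fell inside the ET-type range. MCM2 was 6.88, 6.64, 2.45, 6.59 and 6.50 TPM against 12.9, 9.31, 7.04, 8.52 and 9.76 TPM, with no overlap, a difference of -0.66 ± 0.27 (adjusted p = 0.25), and 3.67% of all genes in that direction. MCM5 at -0.60 and MCM3 at -0.52 had adjusted p of 0.22 and 0.28. Among the members above 0, GEMI was at 0.46 ± 0.23 (adjusted p = 0.35), KIF23 at 0.35, HMMR at 0.09 and ECT2 at 0.03, and leaving out single animals turned the last 2 below 0. Lung markers summed to 3388 to 8525 TPM in ET-type and 4766 to 25500 TPM in L-type lungs.

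In liver none of 14 tested members was called (limma), with 0.00933% of all genes called. AURKB had the smallest p, with 2.36, 2.26, 1.68, 1.13 and 4.65 TPM in ET-type and 0.397, 0.492, 0.404, 0.588 and 1.54 TPM in L-type livers, where only L-type S0385 lay above an ET-type animal. The difference was 0.98 ± 0.30 (limma, adjusted p = 0.55). MCM4 came next at 0.54 ± 0.25 (adjusted p = 0.76). GEMI at 0.54 and RIR1 at 0.28, and PCNA at -0.50 and ECT2 at -0.13, had adjusted p of 0.86 to 0.98. None of these 14 members had types without overlap, beside 0.331% of all genes with the ET type above and 0.751% with it below.

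**Figure D5:**
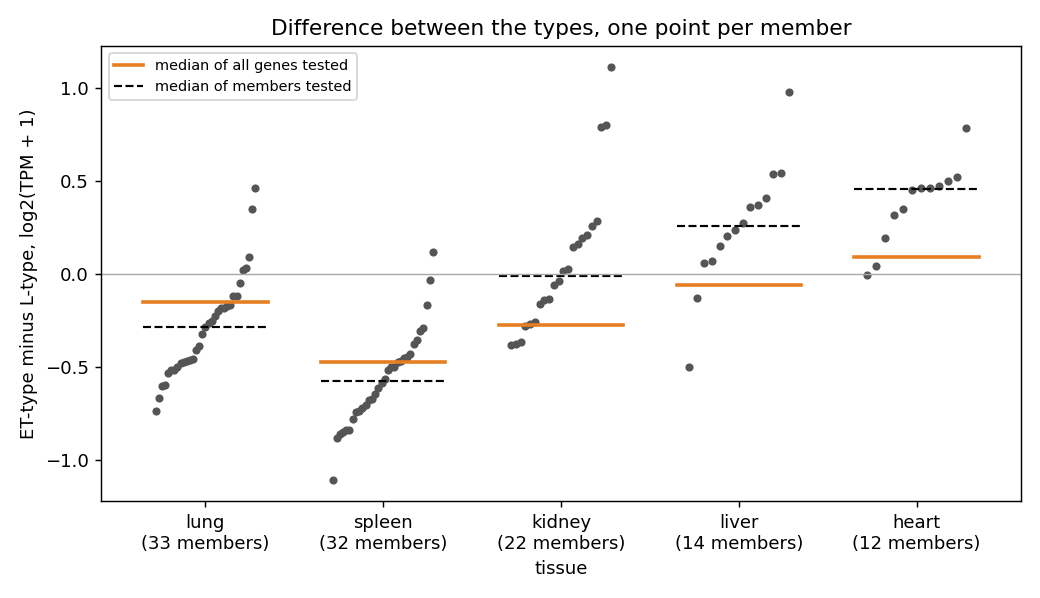
Difference of ET-type minus L-type on the log2(TPM + 1) scale for each tested member, 1 point per member and sorted within a tissue, with the median of the members (dashed) and of all genes tested (orange). The members' median lies at -0.57 in spleen, -0.29 in lung, -0.01 in kidney, 0.26 in liver and 0.46 in heart.

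Averaged over tissues per animal, none of 31 tested members was called (limma), beside 0.00673% of all genes, 0.00336% in each direction. E2F1 had the smallest p, at 0.25 ± 0.11 (adjusted p = 0.24). KITH at 0.23 ± 0.12 (adjusted p = 0.29) and MCM7 at -0.22 ± 0.11 (adjusted p = 0.28) had the next smallest p. UBE2C at 0.27, GEMI at 0.14, PRC1 at -0.20, PCNA at -0.19 and KIF23 at -0.16 did not pass either, with adjusted p of 0.34 to 0.50.

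Whether the difference between types varied with tissue was asked with an F test of the interaction in limma. TOP2A (adjusted p = 0.0137), BUB1B (0.0173), KI67 (0.0313), CDK1 (0.0332) and KITH (0.0383) were called, 5 of 31 members, beside 6.1% of all genes. With the animal as replicate block 12 were called, beside 13.1% of all genes. In a test on simulated data this F test made more false calls than its threshold allows, so it was repeated as differences within each animal, 1 pair of tissues at a time. In that form 10 members were called, all for spleen minus heart, where 18.6% of all genes were called. The split of that share by direction is not given here. Between the types in spleen alone, 21.5% of all genes were called lower and 0.696% higher. All 10 members had a more negative ET minus L difference in spleen. ECT2 (-1.12 ± 0.27, adjusted p = 0.0320), RIR1 (-0.87 ± 0.22, adjusted p = 0.0335), PRC1 (-1.18 ± 0.30, adjusted p = 0.0341), MCM6 (-1.38 ± 0.36) and PCNA (-1.15 ± 0.30), both with adjusted p = 0.0352, and CDK1 (-1.32 ± 0.36, adjusted p = 0.0379) were among them. Without the spleens of S0377 and S0385 the F test called none.

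Other genes of the same pathways were read from lists. Of 38 other replication genes, such as the origin recognition complex and the clamp loader RFC, 33 were tested. 23 of them were higher and 2 lower in spleen than in liver, beside 40.8% and 18.4% of all genes, and 4 higher and 8 lower in spleen than in lung, beside 11.8% and 53.2%. ORC1, the largest subunit of the origin recognition complex, was lower in spleen than in lung by 2.37, and DNA ligase 1 (DNLI1) by 2.23, on the log2 scale. Of 44 other mitosis genes 21 were tested, and 17 were higher and none lower in spleen than in liver, beside the same 40.8% and 18.4%, among them the kinetochore gene NUF2 by 2.27 and the centralspindlin subunit RGAP1 by 2.23. Between the types, 8 of 35 tested replication genes and 2 of 28 mitosis genes were called lower in ET-type spleen, shares near and below the 21.5% of all genes called lower there, and none of either list in the other 4 tissues. The replication genes with the smallest p were SLD5 of the GINS complex at -1.18 ± 0.22, RFC1 at -0.98 ± 0.21, dihydrofolate reductase (DYR) at -0.75 ± 0.21 and ORC6 at -0.69 ± 0.19, and the mitosis genes were the condensin subunits SMC4 at -0.83 ± 0.26 and CND3 at -0.70 ± 0.23.

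Genes that govern entry into the cycle and its brakes were also read. Of 25 entry, E2F and pocket protein genes, 14 of 21 tested were higher and 1 lower in spleen than in liver, again beside 40.8% and 18.4% of all genes, with the phosphatase CDC25B (MPIP2) 4.69 higher. In ET-type spleen 4 of 22 were called lower, and among them were the pocket proteins RBL1 at -1.23 ± 0.29 (limma, adjusted p = 0.0266), RBL2 at -0.81 ± 0.22 and RB at -0.64 ± 0.19, with the phosphatase CDC25A (MPIP1) at -0.76 ± 0.24. Of 12 inhibitors, 3 of 11 tested were called lower in ET-type spleen: CDN2B at -1.03 ± 0.25, CDN1B at -1.18 ± 0.32 and BTG1 at -0.97 ± 0.29. Genes that drive the cycle and genes that restrain it were thus both among those called lower in ET-type spleen, where 21.5% of all genes were.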

How the data were processed

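The authors deposited TPM of assembled transcripts, with a sum of 1000000 in every library, and a Swiss-Prot annotation. Per the submitters' processing notes the tools were Trimmomatic 0.36 (read trimming) and Salmon 1.10.0 (quantification), with the build Sscrofa11.1. No counts were used, so no count model was fitted and depth is unknown. TPM was summed by entry name. Members and gene lists were chosen with earlier results of these data known.

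The scale was log2(TPM + 1), and a gene had to average 1 TPM. With limma 3.58.1 under R 4.3.3 (moderated test with a trend), ET was set against L type per tissue and over the mean of tissues, tissues against each other, and the interaction was tested. P-values were adjusted by Benjamini-Hochberg over all genes and called below 0.05. The kidney library of S0235 was left out of kidney, tissue and interaction fits. Libraries of an animal are paired by its label, and their consensus correlation was 0.124. Text names, per type fit, members that passed or up to 4 a direction with the smallest p, for tissues 12 set members and those with another order, and up to 4 per other list. TOP2A, KI67 and UBE2C between the types in spleen and KI67 and TOP2A in heart, with ORC1, DNLI1, NUF2, RGAP1 and MPIP2 between tissues, were named after their values were seen.

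Fits were tested on simulated data, with each gene and library drawn independently and no correlation within animals. Changes were given only to genes that averaged at least 5 TPM. Alternatives: a pseudocount of 0.1, filters of 0 and 5 TPM, median-ratio scaling, haemoglobin or mitochondrial transcripts left out, identity of at least 70%, robust limma, each animal left out, the S0235 kidney kept, and the animal as replicate block. Differences within animals, and leaving out 2 spleens, were added with results in view. Further software: matplotlib 3.10.9, numpy 2.4.6, pandas 2.3.3, Python 3.11.15 and data.table (version 1.17.8). Promoters and sequences were not used here.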

Additional observations from a re-analysis of the deposited data

Results flagged for a closer look

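Of 130 groups of 4 or 5 libraries examined for a value far from the rest, 7 had one, and chance alone gives about 1 in 20. The same libraries enter many of these groups, so the 7 are not independent and that chance share need not hold. In heart, the L-type animal S0355 stood above the other L-type hearts for KI67, with 0.278 TPM against 0.0570 to 0.0929, and for KITH, with 0.237 TPM against 0 to 0.0551. In kidney, L-type S0349 stood below for TOP2A, with 0.124 TPM against 0.303 to 0.326. In lung, ET-type S0276 stood below for MCM2, with 2.45 TPM against 6.50 to 6.88, and for the mean over all members, with 2.29 on the log2(TPM + 1) scale against 2.62 to 2.72. L-type S0377 stood below the other L-type lungs for TOP2A, with 1.85 TPM against 3.78 to 3.99, and for the mean over all members, with 2.49 against 2.88 to 3.02. In the test of limma for a difference between types that varies with tissue, 5 members were called, beside 6.1% of all genes, and in a check on simulated data this test made more false calls than its threshold allows. The 5 were TOP2A (adjusted p = 0.0137), BUB1B (adjusted p = 0.0173), KI67 (adjusted p = 0.0313), CDK1 (adjusted p = 0.0332) and KITH (adjusted p = 0.0383).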

How the results depend on the processing

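Members called were counted again under each alternative. In spleen the 4 calls between types became 2 with a pseudocount of 0.1 (18.8% of all genes called), 0 with median-ratio scaling (2.68%), 1 with haemoglobin left out (7.84%), 11 with the animal as replicate block (20.7%), 0 without the spleens of S0377 and S0385 (0.00881%), and 0 to 6 when 1 animal was left out. The count was 0 without ET-type S0276 or S0326 or without L-type S0377, S0384 or S0385, 2 without S0242, and 6 without S0309, S0349 or S0355. In kidney the replicate block called 1 member (0.693% of all genes). In heart 1 member was called without S0242 (10.2% of all genes), a range of 0 to 1. The 5 interaction calls became 0 with a mean of at least 5 TPM (7.97% of all genes called), 1 with median-ratio scaling (3.60%), 13 with mitochondrial transcripts left out (11.4%), 1 with the S0235 kidney kept (1.81%), 12 with the replicate block (13.1%), 10 as differences within animals (18.6% in spleen minus heart), 0 without the 2 spleens (1.32%), and 0 to 9 when 1 animal was left out: 0 without S0326 or S0385, 1 without S0377, 2 without S0276 or S0384, 3 without S0349 and 9 without S0242. For spleen and for the interaction, the share of all genes called with 1 animal left out is not given here. Those counts can therefore not be read as particular to the members. The cause of these shifts was not tested.

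A mean of at least 5 TPM left 9 members in the tissue fit and called 6 of them in spleen minus lung, 5 in spleen minus kidney, 8 in spleen minus liver, 9 in spleen minus heart, 8 in lung minus kidney, 9 in lung minus liver, 9 in lung minus heart, 6 in kidney minus liver, 7 in kidney minus heart and 7 in liver minus heart, fewer because fewer were tested. Between 60.3% and 83.4% of all genes were called in those pairs. Keeping the S0235 kidney gave 16 in spleen minus kidney (52.0% of all genes). Directions turned for heart MCM7, which was 0.14 with mitochondrial transcripts left out and ran from -0.155 to 0.0471 without 1 animal, and for kidney MCM7, at 0.0546 with median-ratio scaling. Without 1 animal liver ECT2 ran from -0.288 to 0.0251, lung HMMR from -0.0603 to 0.227, and lung ECT2 was -0.03, -0.10 and -0.04 without S0242, S0377 and S0384. With median-ratio scaling spleen minus lung CCNB1 became 0.0126, lung minus liver GEMI -0.13 and lung minus heart PCNA -0.0404.

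Depth is unknown, so no limit of detection can be given, and levels under 1 TPM are imprecise. A p that missed the threshold with 5 animals a type does not show that the types are equal.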
